A study of Mus musculus with 9 samples.

Results

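Id1, Id2, Id3, Id4, Smad6, Smad7, Smad9, Bmp2, Tgfb1 and Tgfb2 were followed across healthy mouse livers, livers with hepatocellular carcinoma (HCC) and HCC livers given the microRNA miR-22. The 10 genes were taken by symbol from a table of 55401 genes. The list was drawn up with results of these same livers in view, so the values of its members are described without a test. All 10 genes were present and passed the filter on low counts, as did 15717 genes in all.

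RNA was sequenced from 9 whole livers of female mice, 3 per group. Healthy livers came from wild-type mice that were labelled as untreated baseline controls and carried no tumor. Liver tumors were induced at 6 weeks of age by hydrodynamic tail vein injection of sleeping beauty transposon plasmids for myristoylated AKT and mutant NRAS, which reach hepatocytes. The submitters' plasmid list also names N90-β-catenin, whereas the study's methods call these tumors RAS/AKT-induced. Untreated HCC mice received blank AAV8 at week 1 after the oncogenes, and miR-22-treated HCC mice received AAV8-miR-22, driven by a CMV promoter that is not restricted to one cell type. Both HCC groups were harvested at week 5, 4 weeks after the virus. The study's methods give an age of 6 weeks for the mice obtained, but the age of the healthy mice at harvest was not given. No healthy liver received plasmid or virus according to the labels, so tumor, injection and virus cannot be told apart in a comparison with healthy livers. The strain is FVB/N in the protocol and C57BL/6 in the sample characteristics. Numbers are those of the labels, which run from 1 to 3 for healthy livers and from 2 to 4 in both HCC groups.

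Bone morphogenetic proteins (BMPs) and TGF-beta are secreted ligands that assemble paired serine/threonine kinase receptors and cause SMAD proteins to enter the nucleus. The ID proteins are classic products of BMP signaling. They lack a DNA-binding region and hold E proteins in dimers that cannot bind DNA. The inhibitory SMADs, SMAD6 and SMAD7, are induced by the same signals and dampen them, which closes a feedback loop. In the liver, BMP ligands from sinusoidal endothelial cells set the hepcidin gene in hepatocytes, whereas TGF-beta drives stellate cells to make collagen.

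The sequences below show what was delivered and the letters searched for near the members. The mature strand delivered was mmu-miR-22-3p, encoded at chr11:75463772-75463793 on the plus strand (GRCm38.p6, RefSeq), with its seed, bases 2 to 8, in capitals:
mmu-miR-22-3p: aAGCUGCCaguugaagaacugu
The DNA match to this seed, GGCAGCT, was found in the annotated 3′ UTR of the canonical transcript of 0 of the 10 members and of 2287 of 13661 tested genes with a 3′ UTR, a share of 16.7%. The median 3′ UTR was 983 bases in the members and 1323 bases over all these genes. The absence of a match says only that these letters are not in this window.

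RefSeq promoters, running from 250 bases before to 50 bases after the start of transcription, were matched for 7 members. Those of Id1, Smad7 and Bmp2 were not matched. Each promoter was searched on both strands for the palindromic SMAD-binding element GTCTAGAC, for the GC-rich element GGCGCC that BMP-activated SMADs bind, and for the CAGA element CAGACA. None of these motifs is contained in another, on either strand. GTCTAGAC stood in the Smad6 promoter and in 0.213% of 32851 promoters. GGCGCC stood in the promoters of Id2, Id4 and Smad9 and in 11.9% of all promoters. CAGACA stood in the Tgfb2 promoter and in 21.0% of all promoters. The promoters of Smad6, Smad9 and Tgfb2 are shown because they hold the rarest motif and belong to the members with the largest differences between groups, with the motif in capitals. Their positions are chr9:64022010-64022309 on the minus strand, chr3:54755332-54755631 on the plus strand and chr1:186705940-186706239 on the minus strand (GRCm38.p6).
Smad6: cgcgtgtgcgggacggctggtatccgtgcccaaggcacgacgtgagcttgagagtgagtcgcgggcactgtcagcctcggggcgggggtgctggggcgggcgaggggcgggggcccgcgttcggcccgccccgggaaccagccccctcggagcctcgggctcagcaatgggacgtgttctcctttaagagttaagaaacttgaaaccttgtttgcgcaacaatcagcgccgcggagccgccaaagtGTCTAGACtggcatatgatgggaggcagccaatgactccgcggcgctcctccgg
Smad9: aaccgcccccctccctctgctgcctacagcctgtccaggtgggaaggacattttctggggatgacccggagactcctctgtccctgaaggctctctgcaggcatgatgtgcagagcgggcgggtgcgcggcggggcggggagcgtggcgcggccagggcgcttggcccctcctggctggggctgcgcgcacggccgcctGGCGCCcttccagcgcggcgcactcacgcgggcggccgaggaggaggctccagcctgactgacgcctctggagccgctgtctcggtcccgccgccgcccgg
Tgfb2: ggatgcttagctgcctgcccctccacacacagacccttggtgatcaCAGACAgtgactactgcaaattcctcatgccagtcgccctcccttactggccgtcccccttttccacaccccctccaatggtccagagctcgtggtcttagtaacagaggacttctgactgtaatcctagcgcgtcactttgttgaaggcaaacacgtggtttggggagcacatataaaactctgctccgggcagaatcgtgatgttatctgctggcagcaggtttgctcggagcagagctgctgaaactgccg
These matches describe the letters and were not tested as binding sites.

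Libraries held between 16664659 and 23908392 counts. Levels are given as CPM, the counts relative to a library size scaled by the trimmed mean of M values (TMM). A gene was called changed where edgeR's quasi-likelihood test gave an adjusted p under 0.05 over all genes tested and the fold change exceeded 1.5. Pairs of livers of one group differed by more than counting noise, with a chi-square per degree of freedom of 6.13 to 28.4, so no library was a copy of another. Hepatocyte markers identified the tissue as liver in every group, and their summed level was 121158 to 125910 CPM in healthy livers, 49027 to 61011 CPM in untreated HCC and 73445 to 91094 CPM in miR-22-treated HCC. All 8 hepatocyte markers were called lower in untreated HCC against healthy livers, and 5 of the 8 were called higher with miR-22. Fewer cells of a type and less RNA per cell cannot be told apart in such whole-liver RNA.

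**Figure D1:**
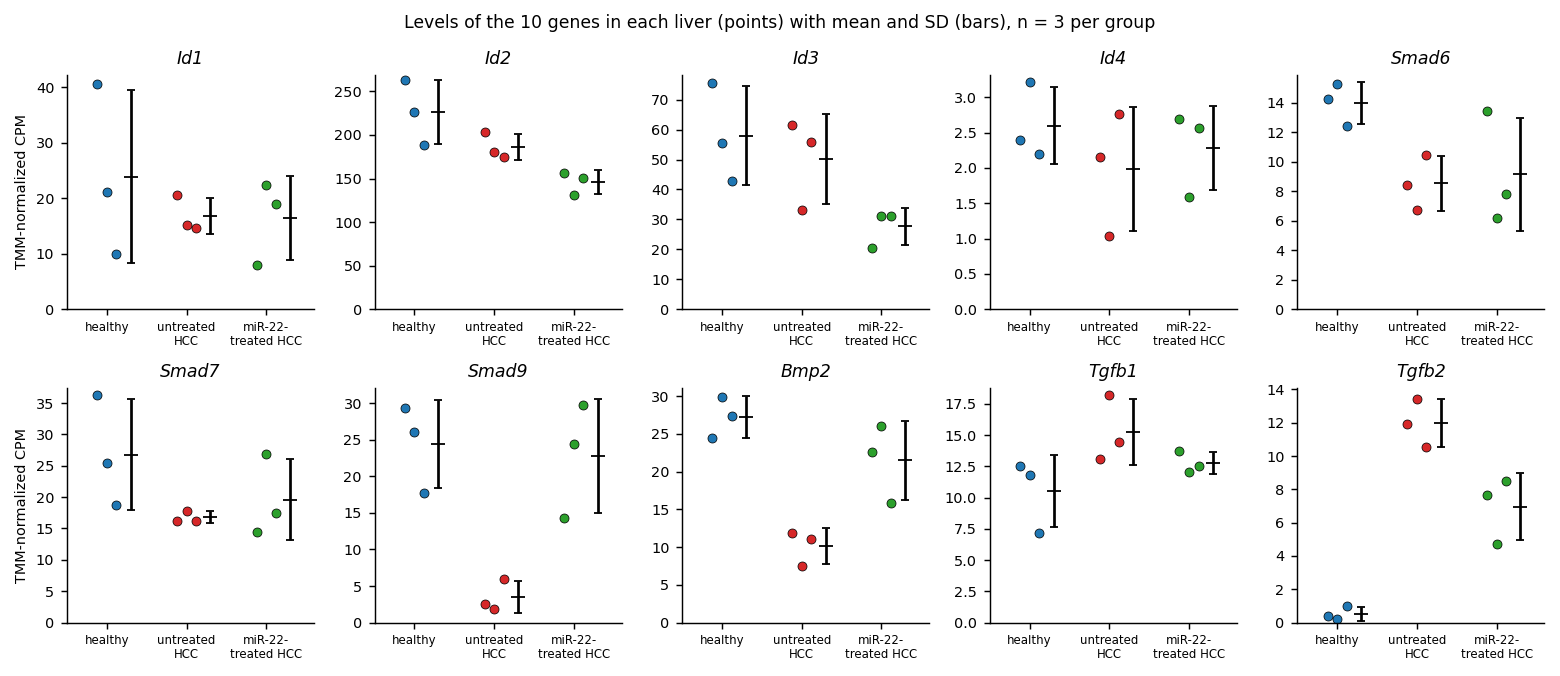
Level of each of the 10 genes in TMM-normalized CPM (vertical axis, linear from 0) by group (horizontal axis). Each point is 1 liver in the order of its replicate number, and the bar beside it is the mean ± SD of 3 livers; Smad9 and Bmp2 were low in untreated HCC alone, and Tgfb2 was near 0 in healthy livers alone.

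Between untreated HCC and healthy livers, 5 of 10 members lay past both thresholds, 4 lower and 1 higher. Over all genes tested, 40.8% were called, 22.7% higher and 18.1% lower. The groups did not overlap for 6 members, against 65.3% of all genes tested. The median log2 fold change was −0.44 over the members and 0.01 over all genes. Since the members were chosen on these livers, nothing is read from these counts.

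With miR-22 against untreated HCC, 3 of 10 members lay past both thresholds, namely Smad9 and Bmp2, which were higher, and Id3, which was lower. The groups did not overlap for 5 members. Over all genes tested, 13.8% were called, 8.32% higher and 5.47% lower, and 39.3% did not overlap. Those 2167 calls fell to 1433 without miR-22-treated replicate 3, of which 415 were lower in place of 859. The lower calls numbered 565 without untreated replicate 2 and 481 without untreated replicate 3. The median log2 fold change was 0.03 over the members and 0.002 over all genes.

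Between miR-22-treated HCC and healthy livers, 3 of 10 members lay past both thresholds, Tgfb2 higher and Id2 and Id3 lower, and the same 3 had groups that did not overlap. Over all genes, 24.0% were called, 16.9% higher and 7.05% lower, and 48.8% did not overlap. The median log2 fold change was −0.40 over the members and 0.02 over all genes. The 3 comparisons share groups of livers and are not independent of one another.

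**Figure D2:**
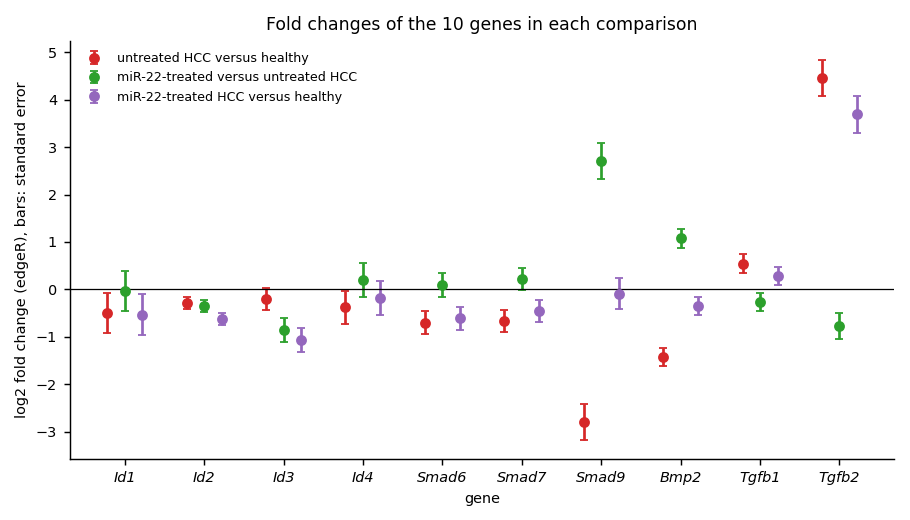
Log2 fold change of each gene (vertical axis) with its standard error from the edgeR fit of 9 livers, for the 3 comparisons (colors). Smad9 and Bmp2 lie below 0 in untreated HCC against healthy livers and above 0 with miR-22. Id3 lies below 0 in each comparison, and further below in those that involve miR-22, and Tgfb2 stands highest against healthy livers.

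Tgfb2, which encodes a ligand that is scarce in the resting liver, showed the largest difference among the members. Healthy livers 1, 2 and 3 held 0.377, 0.189 and 0.989 CPM, which rest on 6, 3 and 18 counts. Untreated HCC livers 2, 3 and 4 held 11.9, 13.4 and 10.6 CPM. The miR-22-treated livers held 7.66, 4.72 and 8.51 CPM. All 3 groups were thus separate, with miR-22-treated livers between the others. The log2 fold change was 4.47 ± 0.38 (SE) in untreated HCC against healthy livers and 5.36 without healthy replicate 3. It was 3.69 ± 0.39 in miR-22-treated HCC against healthy livers and 4.58 without healthy replicate 3. With miR-22 it was −0.77 ± 0.28 against untreated HCC, which missed the thresholds in the fit of all livers but passed them under 6 of the alternatives, DESeq2 among them. The gene lies at chr1:186354985-186438294 on the minus strand (GRCm39, as all gene positions here, from GENCODE M39).

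Tgfb1, the main TGF-beta of the liver, varied less. It stood at 12.5, 11.8 and 7.20 CPM in healthy livers and at 13.1, 18.2 and 14.5 CPM in untreated HCC. These groups did not overlap, but replicates 1 and 2 of the healthy livers came close to the lowest untreated one. The log2 fold change was 0.54 ± 0.19, under the fold threshold, which it passed at 0.59 with upper-quartile factors or with at least 10 counts in every library and at 0.63 to 0.68 without healthy replicate 1 or 2 or untreated replicate 2. It was 0.32 without healthy replicate 3. The miR-22-treated livers held 13.7, 12.1 and 12.5 CPM and overlapped both other groups, with log2 fold changes of −0.26 ± 0.19 against untreated HCC and 0.29 ± 0.20 against healthy livers. Tgfb1 lies at chr7:25386390-25404506.

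Per length of transcript the composition of the TGF-beta ligands differed between the groups. Levels per length are CPM per kilobase of the canonical transcript. Tgfb1 made up 90.7% ± 7.50 (SD, n = 3) of the summed Tgfb1, Tgfb2 and Tgfb3 level in healthy livers, 58.1% ± 5.04 in untreated HCC and 68.5% ± 5.06 in miR-22-treated HCC. The Tgfb2 share was 2.21% ± 2.24, 19.4% ± 0.869 and 15.6% ± 3.11 in the same order. Tgfb1 stayed the most abundant of these transcripts in each liver, with its lowest share, 52.5%, in untreated replicate 2. Tgfb3 was not a member and was tested: it rose in untreated HCC by 2.98 ± 0.30 on the log2 scale (edgeR adjusted p = 3.93e-06). With miR-22 it fell by 0.95 ± 0.26 (edgeR adjusted p = 0.0187), a call that was lost without untreated replicate 2 and without miR-22-treated replicate 3.

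**Figure D3:**
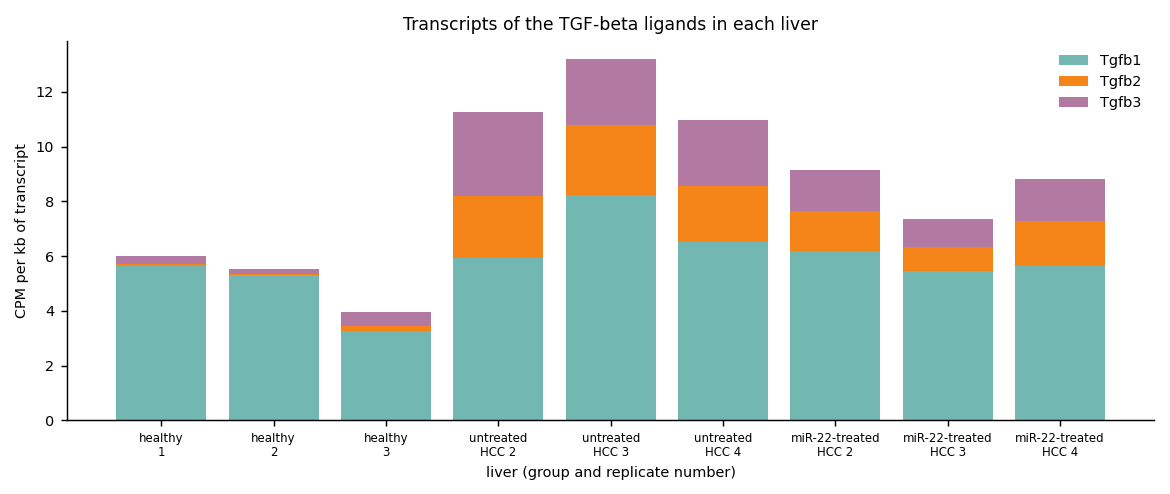
Summed level of Tgfb1, Tgfb2 and Tgfb3 in CPM per kilobase of transcript (vertical axis) in each of the 9 livers (horizontal axis). Tgfb2 is barely visible in the healthy livers and takes 18.4% to 20.2% of each untreated HCC column and 12.3% to 18.4% of each miR-22-treated one.

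Summed ductal markers moved in the same directions as Tgfb2, and summed stellate and myofibroblast markers did so by a smaller amount. Summed ductal markers stood at 29.5 to 42.1 CPM in healthy livers, 3340 to 6260 CPM in untreated HCC and 1568 to 2714 CPM in miR-22-treated HCC, of which Spp1 supplied most. Of these 6 markers, 5 were called higher in untreated HCC and 4 lower with miR-22. Krt19 was called in neither comparison, with log2 fold changes of 0.89 and −0.01. Summed stellate and myofibroblast markers stood at 236 to 288, 424 to 515 and 353 to 416 CPM in the same order, but its 9 markers did not move together. In untreated HCC 4 were called higher and 2 lower, and with miR-22 1 was called higher and 1 lower, with a median log2 fold change of 0.34. The part of ductal and stellate content in the Tgfb2 and Tgfb1 values was not tested.

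Bmp2, a ligand made by liver sinusoidal endothelial cells that induces hepcidin in hepatocytes, ran the opposite way. Healthy livers held 24.4, 29.9 and 27.3 CPM and untreated HCC livers 11.9, 7.48 and 11.0 CPM. The miR-22-treated livers held 22.6, 26.0 and 15.8 CPM. Each untreated liver lay below each liver of the other groups, whereas miR-22-treated and healthy livers overlapped. The log2 fold change was −1.42 ± 0.20 in untreated HCC against healthy livers, 1.08 ± 0.20 with miR-22 against untreated HCC and −0.35 ± 0.19 in miR-22-treated HCC against healthy livers. Bmp2 lies at chr2:133394079-133404816.

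Endothelial markers moved in the same direction as Bmp2 by a smaller amount. Their summed level was 654 to 837 CPM in healthy livers, 397 to 493 CPM in untreated HCC and 521 to 675 CPM in miR-22-treated HCC. Of 13 markers, 7 were called lower and 1 higher in untreated HCC, and 2 were called higher with miR-22. Their log2 fold changes in untreated HCC ranged from −1.30 for Ptprb to 0.95 for Emcn, with a median of −0.62. The part of endothelial and hepatocyte content in the Bmp2 values was not tested.

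Smad9, also known as SMAD8, is the receptor-activated SMAD whose own gene responds to BMP and whose protein can temper the pathway. It stood at 29.4, 26.0 and 17.7 CPM in healthy livers and at 2.48, 1.88 and 5.94 CPM in untreated HCC. The miR-22-treated livers held 14.4, 24.4 and 29.7 CPM. Untreated HCC was separate from both other groups, which overlapped each other. The log2 fold change was −2.79 ± 0.37 in untreated HCC against healthy livers, a 6.94-fold lower level, and 2.71 ± 0.37 with miR-22, a 6.52-fold higher level. It was −0.09 ± 0.33 between miR-22-treated HCC and healthy livers. Untreated replicate 4 was the highest of its group, and without it the 2 differences were −3.48 and 3.39. The hepatocyte markers given above moved in the same directions, and their part in the Smad9 values was not tested. Smad9 lies at chr3:54662963-54708680.

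The inhibitory SMADs were lower in untreated HCC, with a smaller difference than Smad9. SMAD6 acts mainly on BMP receptors. Smad6 stood at 14.3, 15.2 and 12.4 CPM in healthy livers and at 8.44, 6.72 and 10.5 CPM in untreated HCC, which did not overlap. The miR-22-treated livers held 13.4, 6.19 and 7.80 CPM and spread over both groups, with replicate 2 at the healthy level. The log2 fold changes were −0.71 ± 0.25, 0.10 ± 0.25 with miR-22 and −0.61 ± 0.25 in miR-22-treated HCC against healthy livers. The first lay past the thresholds with all livers, but not without healthy replicate 1 or 2 or untreated replicate 2 or 3, where it ranged down to −0.56. The last passed the thresholds with the DESeq2 test, with no filter on low counts and without miR-22-treated replicate 2, where it was −1.003. Smad6 lies at chr9:63860341-63929793.

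SMAD7 acts on both the BMP and the TGF-beta receptors. Smad7 stood at 36.3, 25.4 and 18.7 CPM in healthy livers, of which replicate 3 lay just above the highest untreated HCC liver. Untreated HCC livers held 16.2, 17.9 and 16.2 CPM, and miR-22-treated livers 14.5, 26.8 and 17.5 CPM. The miR-22-treated livers overlapped both other groups. The log2 fold changes were −0.67 ± 0.24, 0.22 ± 0.24 with miR-22 and −0.45 ± 0.24 in miR-22-treated HCC against healthy livers. The first was −0.41 without healthy replicate 1, which no longer passed the thresholds, and missed them also without any 1 of the 3 untreated livers, at −0.72 to −0.65. The last was −0.67 without healthy replicate 3 and −0.74 without miR-22-treated replicate 3, and passed the thresholds in both cases. Smad7 lies at chr18:75500374-75529006.

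Among the ID genes, Id3 and Id2 were lowest in miR-22-treated HCC. Id3 stood at 75.6, 55.6 and 42.7 CPM in healthy livers, 61.6, 33.2 and 55.9 CPM in untreated HCC and 20.6, 31.1 and 31.3 CPM in miR-22-treated HCC. Healthy and untreated livers overlapped, whereas each miR-22-treated liver lay below each of the others. The log2 fold change was −0.86 ± 0.25 with miR-22 against untreated HCC and −1.06 ± 0.25 against healthy livers, next to −0.20 ± 0.24 in untreated HCC against healthy livers. The first lay between −0.78 and −0.69 and missed the thresholds when untreated replicate 2 or 4 or miR-22-treated replicate 2 was left out. Id3 lies at chr4:135870808-135873066.

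Id2, the most abundant of the family in these livers, stood at 262.7, 226.1 and 189.1 CPM in healthy livers. It stood at 203.3, 180.0 and 174.7 CPM in untreated HCC and at 156.1, 130.6 and 151.0 CPM in miR-22-treated HCC. The miR-22-treated livers again lay below the others, with a gap narrower than the spread within the healthy group. The log2 fold changes were −0.28 ± 0.13 in untreated HCC, −0.35 ± 0.13 with miR-22 and −0.63 ± 0.13 in miR-22-treated HCC against healthy livers. The last missed the fold threshold without healthy replicate 1, at −0.53, and without miR-22-treated replicate 3, at −0.56. Id2 lies at chr12:25143798-25147282.

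Id1, the ID gene most often used as a readout of BMP signaling, varied more among healthy livers than between groups. Healthy livers held 40.6, 21.0 and 9.89 CPM, untreated HCC livers 20.5, 15.2 and 14.6 CPM and miR-22-treated livers 7.89, 22.4 and 18.9 CPM. The groups overlapped in each comparison. The log2 fold changes were −0.50 ± 0.42, −0.03 ± 0.43 and −0.53 ± 0.43 in the order used above. Leaving out 1 liver moved the first between −0.89 and 0.11. Among healthy livers the SD of Id1 was 65.2% of its mean, and the SD of its log2 level lay at the 96.5 percentile of all tested genes. Id1 lies at chr2:152566218-152579544.

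Id4 was close to the lower end of detection, with 23 to 74 counts per liver. It stood at 2.20 to 3.21 CPM in healthy livers, 1.03 to 2.76 CPM in untreated HCC and 1.59 to 2.69 CPM in miR-22-treated HCC, so that the groups overlapped. The log2 fold changes were −0.38 ± 0.35, 0.20 ± 0.35 and −0.18 ± 0.36. Id4 lies at chr13:48414558-48419502. Antisense long noncoding RNAs overlap Id2 (Gm36287), Id4 (Gm49291) and Tgfb2 (Gm29491), and the library kit did not keep strand, so their reads cannot be told apart from those of the members.

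The levels of different genes were compared per kilobase of transcript. In healthy livers the order was Id2, at 91.7 ± 15.0 CPM per kilobase (SD, n = 3), Id3 at 45.4 ± 13.0, Id1 at 20.7 ± 13.5, Bmp2 at 7.63 ± 0.777, Smad7 at 5.95 ± 1.97, Tgfb1 at 4.74 ± 1.30, Smad6 at 4.57 ± 0.470, Smad9 at 4.51 ± 1.12, Id4 at 0.651 ± 0.135 and Tgfb2 at 0.0992 ± 0.0800. Each pair of neighbours from Id3 to Smad9 overlapped in mean ± SD. In untreated HCC Tgfb1 stood above Smad7, at 6.89 ± 1.19 against 3.72 ± 0.210 CPM per kilobase, and Smad9 was near Id4, at 0.635 ± 0.405 against 0.496 ± 0.220. In miR-22-treated HCC Smad9 was at 4.22 ± 1.44 CPM per kilobase, next to Smad7 at 4.35 ± 1.43.

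Summed over the ID family, the level was 158 ± 41.3 CPM per kilobase in healthy livers, 130 ± 18.3 in untreated HCC and 95.7 ± 8.03 in miR-22-treated HCC. Id2 supplied 58.9% ± 5.75, 58.6% ± 5.52 and 62.3% ± 9.46 of it (SD, n = 3). The Id3 share was 28.5% ± 0.731, 29.9% ± 5.93 and 22.5% ± 3.47, and the miR-22-treated range, 18.5% to 25.05%, lay below the healthy one, 28.0% to 29.3%, while that of untreated HCC overlapped both. Replicate 1 was the highest of the healthy livers for Id1, Id2, Id3, Smad7, Smad9 and Tgfb1, and replicate 3 the lowest for 8 members, whereas Id4, Smad6 and Bmp2 were highest in replicate 2 and Tgfb2 in replicate 3. Over all tested genes replicate 1 was the highest for 36.0% and replicate 3 the lowest for 32.0%.

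The rest of the pathway was read from 100 other genes on lists by role, of which 86 could be tested. These genes were not picked for how they moved, though the lists were drawn up with earlier results known. In untreated HCC against healthy livers 36 were called higher and 16 lower, 60.5% of those tested beside 40.8% of all genes, with a median log2 fold change of 0.24. With miR-22 against untreated HCC 10 were called higher and 16 lower, 30.2% of those tested beside 13.8% of all genes, with a median of −0.15. The 16 lower calls became 10 without untreated replicate 2 and 9 without miR-22-treated replicate 3. In miR-22-treated HCC against healthy livers 27 were called higher and 5 lower, 37.2% of those tested beside 24.0% of all genes, and the 5 became 3 without miR-22-treated replicate 4 and with at least 10 counts in every library. The shares of all genes in each direction given earlier are also the background of the separate lists, whose differences from it and from each other were not tested.

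**Figure D4:**
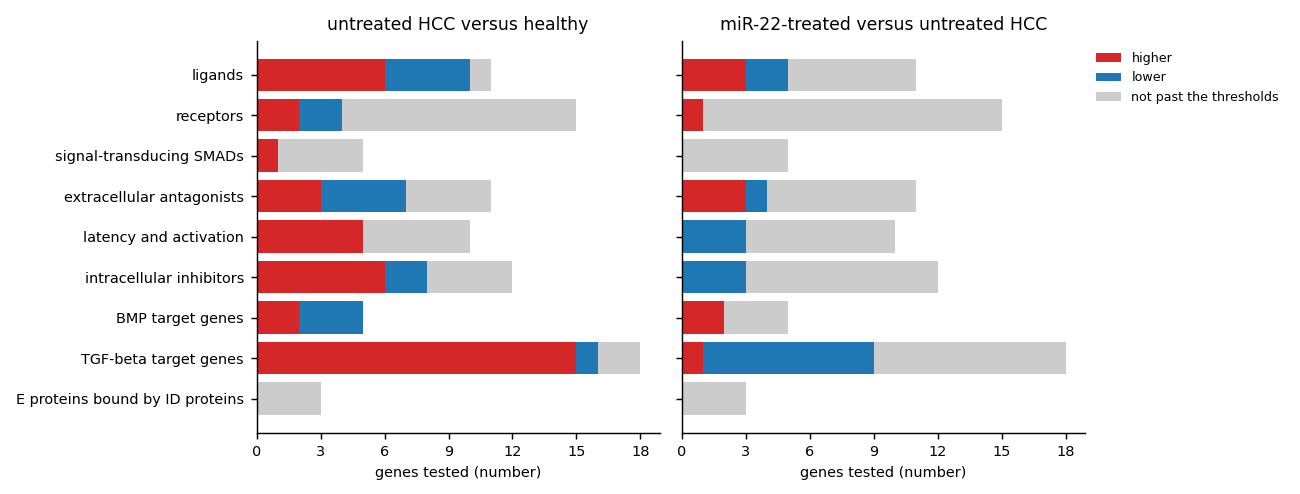
Number of tested genes (horizontal axis) of each list that were called higher, lower or neither, in untreated HCC against healthy livers (left) and miR-22-treated against untreated HCC (right). TGF-beta target genes were mostly higher on the left and, where called, mostly lower on the right, and the E proteins were not called in either.

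Ligands other than the members divided in untreated HCC, with 6 of 11 called higher and 4 lower. Bmp7, which signals through the BMP receptors, rose by 4.58 ± 0.35 on the log2 scale in untreated HCC (edgeR adjusted p = 4.18e-07) and fell by 1.29 ± 0.26 with miR-22 (edgeR adjusted p = 0.00439). Gdf2, which encodes BMP9, a ligand made in the liver, ran in the direction of Bmp2. It fell by 1.41 ± 0.15 in untreated HCC (edgeR adjusted p = 5.94e-06) and rose by 0.81 ± 0.15 with miR-22 (edgeR adjusted p = 0.00281). Gdf10 did likewise, with log2 fold changes of −0.98 ± 0.21 and 1.00 ± 0.21 (edgeR adjusted p = 0.00175 and 0.00573). With miR-22, 3 of the 11 ligands were called higher and 2 lower.

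Of 15 receptors and co-receptors, 2 were called higher and 2 lower in untreated HCC. The higher calls were Rgma, by 3.31 ± 0.58, and Rgmb, by 0.89 ± 0.27, and Rgma rests on 14, 2 and 3 counts in healthy livers. Tgfbr3, the TGF-beta co-receptor betaglycan, fell by 1.30 ± 0.15 (edgeR adjusted p = 1.33e-05), and its log2 fold change with miR-22 was 0.56 ± 0.15, under the fold threshold. The latter ranged from 0.44 to 0.70 with a liver left out. It passed the thresholds without untreated replicate 4, at 0.65, and without miR-22-treated replicate 4, at 0.70. Acvr2b, an activin receptor, fell by 1.04 ± 0.20 in untreated HCC (edgeR adjusted p = 0.000787). With miR-22 it was the 1 receptor called, higher by 0.77 ± 0.21 (edgeR adjusted p = 0.0174), a call lost without untreated replicate 2 and without miR-22-treated replicate 2. Among the SMADs that carry the signal, Smad3, which acts for TGF-beta, rose in untreated HCC by 0.97 ± 0.15 (edgeR adjusted p = 0.000109). Its log2 fold change with miR-22 was −0.52 ± 0.14, under the fold threshold, and ranged from −0.64 to −0.38 with a liver left out. It passed the thresholds without untreated replicate 4, at −0.64, and without miR-22-treated replicate 2, at −0.62. Smad1 and Smad5, the BMP SMADs that share their role with Smad9, had log2 fold changes of −0.16 ± 0.13 and 0.14 ± 0.08 in untreated HCC and of 0.08 ± 0.13 and −0.15 ± 0.08 with miR-22.

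Outside the cell, Bmper, a BMP-binding regulator, fell by 0.87 ± 0.24 in untreated HCC and rose by 1.17 ± 0.24 with miR-22 (edgeR adjusted p = 0.00862 and 0.00474). Of 11 extracellular antagonists, 3 were called higher and 4 lower in untreated HCC, and 3 higher and 1 lower with miR-22. The lower call, of Fstl3, was lost without replicate 2 or 3 of either HCC group. Genes that store or release latent TGF-beta were called higher in 5 of 10 cases in untreated HCC and lower in 3 of 10 with miR-22. Thbs1, which encodes thrombospondin 1, an activator of latent TGF-beta, rose by 5.86 ± 0.29 (edgeR adjusted p = 2.13e-08) and fell by 1.47 ± 0.20 (edgeR adjusted p = 0.000595). Ltbp3, a latent TGF-beta binding protein, rose by 2.16 ± 0.20 and fell by 1.00 ± 0.19 (edgeR adjusted p = 1.93e-06 and 0.00263).

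Inside the cell, 6 of 12 other inhibitors of the pathway were called higher in untreated HCC and 2 lower. Pmepa1, which sequesters TGF-beta SMADs, rose by 2.35 ± 0.26 (edgeR adjusted p = 8.38e-06), and Skil, a SMAD corepressor that TGF-beta induces, by 0.69 ± 0.10 (edgeR adjusted p = 6.05e-05). Ppm1a, a phosphatase proposed to act on SMADs, fell by 0.62 ± 0.09 (edgeR adjusted p = 6.79e-05), but missed the fold threshold with upper-quartile factors, with a minimum of 10 counts in every library and without healthy replicate 2. With miR-22, 3 of 12 were called lower, namely Pmepa1, Tgif1 and Tgif2. The calls of Pmepa1 and Tgif1 were both lost without untreated replicate 2 or 3 and without miR-22-treated replicate 3, and that of Tgif1 also without miR-22-treated replicate 2.

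Hamp, which encodes hepcidin, the iron hormone that BMP signaling controls, stood at 1908, 1570 and 1525 CPM in healthy livers, 220.3, 153 and 384 CPM in untreated HCC and 618, 739 and 556 CPM in miR-22-treated HCC. It fell by 2.72 ± 0.27 in untreated HCC (edgeR adjusted p = 3.57e-06) and rose by 1.34 ± 0.26 with miR-22 (edgeR adjusted p = 0.0035). All 3 groups were separate. Hepatocyte markers, given above, moved in the same directions, and the part of hepatocyte content in the Hamp values was not tested. Hamp2 is a related copy of Hamp, and how cleanly reads divided between them was not tested. Untreated HCC livers 2, 3 and 4 held 4701, 3411 and 10274 counts of Hamp and 0, 4 and 19 counts of Hamp2. Of 5 BMP target genes that are not members, 2 were called higher and 3 lower in untreated HCC. The higher calls were Hey1, by 2.25 ± 0.56, and Bambi, by 0.65 ± 0.17, and Hey1 rests on 6, 3 and 9 counts in healthy livers. With miR-22, 2 were called higher, which were Hamp and Hamp2. The lower call of Atoh8, a target named with them, was lost without healthy replicate 1 and without untreated replicate 2 or 3.

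TGF-beta target genes were called higher in 15 of 18 cases in untreated HCC and lower in 1, with a median log2 fold change of 2.56. With miR-22, 8 were called lower and 1 higher, with a median of −0.65. Col1a1, a fibrillar collagen, stood at 5.78 CPM on average in healthy livers, 192 CPM in untreated HCC and 99.9 CPM in miR-22-treated HCC. It rose by 5.06 ± 0.20 in untreated HCC (edgeR adjusted p = 4.79e-09) and fell by 0.94 ± 0.16 with miR-22 (edgeR adjusted p = 0.00159). Col1a1 is also among the stellate markers whose summed level is given above, and the part of stellate content in these values was not tested.

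The E proteins that the ID proteins bind differed by less than the fold threshold. Tcf3 had log2 fold changes of 0.19 ± 0.14 in untreated HCC and −0.31 ± 0.14 with miR-22. Tcf12 had 0.32 ± 0.09 and −0.37 ± 0.09. Tcf4 had 0.58 ± 0.11 (edgeR adjusted p = 0.000829) and −0.27 ± 0.11, and its first value passed the fold threshold under other choices, such as 0.62 with upper-quartile factors.

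For each member, the genes most alike were found by the root mean square difference of log2 CPM over the 9 livers, each gene centred on its own mean. The likeness is a description, and nothing is drawn from it on shared function. Bmp2 was most like Ugt2b1, at a difference of 0.11 against a spread of 0.66 in Bmp2 itself, then Sdr9c7 and Hgd. These are genes of drug, retinoid and tyrosine metabolism. Smad9 was most like 9030616G12Rik, at 0.37 against 1.46, then Mug-ps1 and Gm22146. Tgfb2 was most like Ndc80, a kinetochore gene, at 0.28 against 2.10, then Mthfd2 and Fam83b. Smad6 was most like Bicral, at 0.16 against 0.46, then Zfp941 and Gata4, and Smad7 most like Parp6, Gm20274 and Atp23. Id1 was most like Vtcn1, at 0.32 against 0.65, then Gm16638 and Nr0b2. Id2 was nearest to Smarcal1, Nat8f4 and Gtf2ird2, Id3 to Ttbk1, Lipt2 and Gm45137, Id4 to Zfp551, Ndn and Pabpc4l, and Tgfb1 to Foxp1, Tmtc1 and Osbpl7.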

How the data were processed

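Whole-liver RNA of 9 female mice (3 healthy, 3 untreated HCC, 3 miR-22-treated HCC) was made into non-directional paired-end libraries. Per the labels and the study's methods, reads were checked with FastQC 0.11.7, quantified with Salmon on GRCm39 and summed per gene. The authors deposited whole-number counts per gene and a second table of signal values, the counts divided by DESeq2 (1.18) size factors. Multiplying these by the size factor returned whole reads, equal to the counts within 0.01, for 100% of values.

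Counts were tested with edgeR 4.0.16 (R 4.3.3), TMM factors, the default filter on low counts and 1 quasi-likelihood fit of the 3 groups, two-sided. Genes were called at a fold change over 1.5 and a p under 0.05 after Benjamini-Hochberg adjustment. Depth was 16664659 to 23908392 counts, so 1 CPM was 15.7 to 26.8 counts. On data simulated for miR-22-treated against untreated HCC over 15363 genes, 152 of 200 changed genes were found, 99 of 100 of those changed 4-fold or more, with 8 false calls. Alternatives were DESeq2 1.42.0 as test and as size factors, upper-quartile factors, other filters, only the groups compared, a replicate block, each liver left out, and, chosen after seeing the data, counts recovered from the signal values.

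The members, lists and tests were chosen with earlier results of these data known. Other pathway genes were named if among the 3 smallest p of their list in either comparison that involves untreated HCC, and for each member the 3 most alike genes were named. Not all genes that this rule names are reported here. Bambi, Rgmb and Tgif2 fall outside it and were named to complete a count, without values under the alternatives. Nothing says that the livers of a group were more than separate samples, so p-values measure the spread between these samples. Of 55401 gene IDs, 51731 were found in GENCODE M39 (GRCm39), used for positions and lengths. Promoters and the miRNA are from RefSeq tables on GRCm38.p6, matched by name.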

Additional observations from a re-analysis of the deposited data

How the results depend on the processing

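Of the members' fold changes under the alternatives, 474 differed from the main value by less than the replicate spread and 3 moved further. The 3 were Smad9 in untreated HCC against healthy livers without untreated replicate 4, and Tgfb2 in both comparisons with healthy livers without healthy replicate 3. No called value changed sign. Uncalled values could do so, as Id1 in untreated HCC against healthy livers did, ranging from −0.89 to 0.13. Among the other pathway genes that the rule above names, 1165 values kept their call and direction, 32 lost the call, 24 gained it and 13 changed sign. The log2 fold change of Acvr1b with miR-22, near 0, changed sign to −0.025 with the DESeq2 test, −0.024 with its size factors, −0.038 with upper-quartile factors, −0.0017 with no filter, −0.015 with at least 10 counts in every library, −0.0035 with only the groups compared, and −0.0598 to 0.0588 with a liver left out. With a liver left out, Smad1 ranged from −0.0497 to 0.161 and Smad2 from −0.0342 to 0.0015. The causes were not tested.

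With a liver left out, genes called ranged from 6062 to 6599 in untreated HCC against healthy livers, from 1433 to 2660 with miR-22 against untreated HCC, and from 3242 to 3809 with miR-22 against healthy livers. Pathway genes called ranged from 47 to 54, 18 to 30 and 26 to 34. Other settings kept each count within 1.5 times.

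Replicate numbers did not pair the livers: same-numbered untreated and miR-22-treated livers had correlations of −0.23 to −0.12 in their deviations, against a mean of 0.08 for other numbers of these groups, and same-numbered pairs with a healthy liver had −0.026 to 0.020. With the replicate block, 5863, 1745 and 3044 genes and 49, 22 and 30 pathway genes were called. The block took the Smad7 difference in untreated HCC to −0.36 and that of Id2 in miR-22-treated HCC against healthy livers to −0.50, both no longer past the thresholds, and the Tgfb1 difference in untreated HCC to 0.73, past them. With miR-22 against untreated HCC it ended the calls of Tgfb3, Acvr2b, Fstl3 and Pmepa1 and added that of Atoh8.

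The standard errors of Id1 and Id4 were close to the size of their differences or larger, and Tgfb2 in healthy livers rests on 3 to 18 counts. Whole-liver RNA does not show which cells held a transcript.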
